A study of Homo sapiens with 3 samples.

Results

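C-poor clusters are the RNA editing clusters of the RBFOX2-APOBEC1 STAMP experiment in which at most 0.10 of all bases are C, by the deposited count of editable bases, so that the editor had few targets to mark. They were chosen by dividing the C bases of a cluster by its length. The rule does not use the amount of editing, although the bounds of a cluster come from windows that passed a test for edits. This left 1818 of 14295 clusters in replicate 1, 1834 of 15181 in replicate 2 and 1402 of 11367 in replicate 3, or 5054 of 40843 clusters in all. The C-poor share was 12.7%, 12.1% and 12.3%, with Wilson 95% intervals of 12.2% to 13.3%, 11.6% to 12.6% and 11.7% to 13.0%.

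The samples are 3 replicates of 1 group, human embryonic kidney cells of genotype WT that the sample titles call HEK293T and the cell line field HEK293XT (a lentiviral packaging line derived from HEK293T), in which a doxycycline-induced fusion of RBFOX2 to APOBEC1 was expressed for 72 h. The labels name a transient transfection while the growth protocol describes stable lines, so how the fusion was introduced is uncertain. No sample with APOBEC1 alone or without the fusion was analysed here, and editing that does not depend on RBFOX2 cannot be told apart from editing that does. All comparisons below are between C-poor clusters and the remaining clusters of the same replicate.

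In STAMP, an RNA-binding protein carries the cytidine deaminase APOBEC1 to the transcripts it binds, and C bases near the binding site are converted to U. RBFOX2 is a splicing regulator of the RBFOX family that recognises a short conserved motif and binds mainly in introns and 3′ untranslated regions. APOBEC1 deaminates C only, so a stretch of A, G and U can lie beside a bound protein and carry no mark. APOBEC1 is known to prefer C bases in surroundings rich in A and U, and such stretches are common in 3′ untranslated regions. FLARE, the program behind the clusters, tests windows of 30 bases against a background rate of editing and merges those that pass. A cluster's edit fraction is the number of edited bases over all C bases covered by reads, summed over reads, and an edited read is a read with at least 1 edit in the cluster.

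C-poor clusters were short. Their median length was 30 bases in each replicate, the size of a single window, against 45 bases in the remaining clusters, and 55.7% ± 3.35 (SD, n = 3) of them had exactly 30 bases, against 24.2% ± 0.923. They held a median of 3 C bases, where the remaining clusters held 9.67 ± 0.577. Length and C bases are the values the rule uses, so these differences are a description of the choice. The longest C-poor clusters lay in exons of SLC19A2 (a thiamine transporter, 210 bases with 21 C bases in replicate 3), CORO1C (an actin-binding coronin, 180 bases in replicate 1) and MATR3 (a nuclear matrix RNA-binding protein, 180 bases in replicate 2). Together the C-poor clusters covered 9.50% ± 0.382 of all bases in clusters but 2.71% ± 0.235 of all covered C bases. They carried 4.82% ± 0.289 of all edited bases and 6.17% ± 0.846 of all edited reads.

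In position and kind of gene they were close to the rest. Clusters that lay only in introns made up 2.59% ± 0.432 of C-poor and 1.99% ± 0.313 of the remaining clusters. By the RefSeq symbol of the gene, 97.1% ± 0.159 of C-poor clusters were in protein-coding genes, against 96.3% ± 0.220. None lay on the mitochondrial chromosome, whose RNA gave 0.0454% ± 0.0137 of the remaining clusters. The mitochondrially encoded genes had 7, 4 and 5 clusters in the 3 replicates, with a median of 0.304 ± 0.0339 C bases per base.

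**Figure D1:**
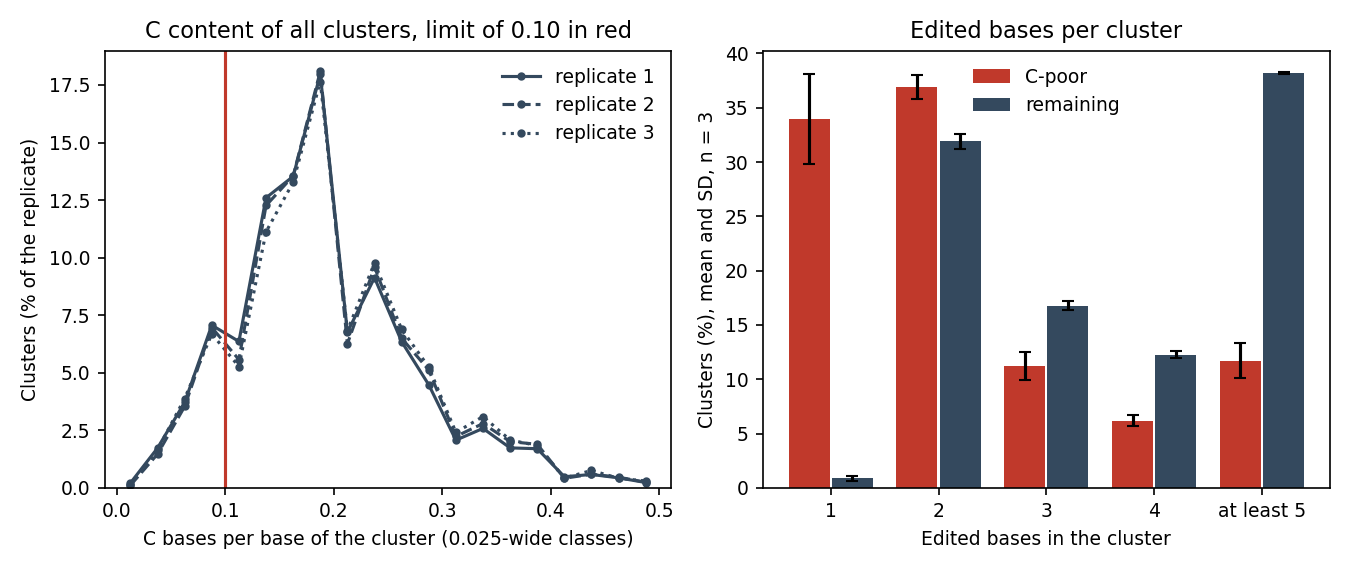
Left, share of all clusters (percent of the replicate) in classes of C bases per base, 1 line per replicate, with the limit of 0.10 as a vertical line. Right, share of C-poor and remaining clusters with 1 to 4 or at least 5 edited bases (bars are means of 3 replicates, error bars SD). The limit cuts through the left flank of a broad distribution. A single edited base was held by 34.0% of C-poor clusters against 0.861% of the remaining clusters, without matching for covered C bases.

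Many C-poor clusters rested on a single edit. A single edited base was found in 29.3%, 35.4% and 37.2% of C-poor clusters of replicates 1, 2 and 3, and in 0.681%, 1.14% and 0.763% of the remaining clusters. The ranges over replicates lie far apart, but the groups were not matched for covered C bases (median 53.3 ± 12.1 against 201 ± 10.7). Of all clusters with 1 edited base, 86.2%, 81.0% and 87.3% were C-poor. The C-poor ones among these were thinly covered, with a median of 14, 14 and 13 covered C bases and at most 31, 24 and 30. The remaining ones had at most 34, 30 and 27. With 1 edited base, an edit fraction is set by the number of covered C bases alone. Windows were kept only where edits exceeded a background rate per C base, so 1 edit can pass only on few covered C bases. The contrast between the groups is thus in part built in. The highest edit fractions of all C-poor clusters also stood on few covered C bases, as 3 examples show. A cluster in PPP4C, the catalytic subunit of protein phosphatase 4, reached 40% on 5 covered C bases, one in the kinase gene MARK3 reached 37.5% on 8, and one in SPG11, a gene of hereditary spastic paraplegia, reached 38.7% on 31 covered C bases in 5 reads. None of the 3 overlapped clusters in both other replicates.

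At like coverage the edit fraction of C-poor clusters was higher. Coverage here means the number of reads over an average C of the cluster (its covered C bases divided by its C bases), and its median was 18, 15 and 13.7 in C-poor clusters against 23.2, 22.8 and 20.1 in the remaining clusters. Averaged over 6 coverage classes with the C-poor clusters as weights, the median edit fraction of C-poor clusters was 4.41%, 4.57% and 4.97%, and that of the remaining clusters 2.28%, 2.48% and 2.61%. The groups do not overlap, and the differences of 2.13, 2.09 and 2.36 percentage points (2.19 ± 0.147, SD, n = 3) are many times their spread. An exact two-sided sign-flip permutation test over the 3 replicate differences gave p = 0.25, which is the smallest value that 3 replicates allow, so no comparison here could pass a threshold of 0.05. The direction is in part built in, since a cluster with fewer C bases at the same coverage has fewer covered C bases and its smallest possible edit fraction is higher. Between clusters with like numbers of covered C bases, the difference was 0.408 ± 0.0141 percentage points (0.421, 0.393 and 0.411), again with an exact sign-flip p of 0.25.

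The gap was present in each coverage class. Under 5 reads per C base the median was 7.69% in C-poor clusters of all 3 replicates and 6.06% ± 0.184 in the remaining clusters. At 5 to 10 reads it was 7.51% ± 0.317 against 3.88% ± 0.0503, and at 10 to 20 reads 5.92% ± 0.0593 against 2.12% ± 0.0350. At 40 to 80 reads it was 1.42% ± 0.0236 against 0.953% ± 0.00972, and at 80 or more 0.929% ± 0.0301 against 0.618% ± 0.00904. The ratio of the 2 medians was thus widest between 10 and 20 reads per C base.

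Edited reads were fewer. The mean number of edited reads in a C-poor cluster was 2.50, 2.07 and 1.89, and in the remaining clusters weighted to the same coverage 4.51, 4.47 and 3.65, a difference of -2.06 ± 0.323 (exact sign-flip p = 0.25). The mean was lower in each coverage class, but the gap was by far widest at 80 or more reads per C base, with 5.95 against 18.0. That class has no upper limit, so like coverage is not ensured there. At 10 to 20 reads the means were 1.60 against 1.93, at 20 to 40 reads 2.07 against 2.47, and at 40 to 80 reads 2.21 against 3.64. The share of a cluster's reads that were edited was also lower at like coverage. Its class medians averaged 7.29% ± 0.664 against 8.64% ± 0.677, with differences of -1.63, -1.02 and -1.42 percentage points. Without matching, the medians were 5.26%, 5.88% and 6.67% against 5.56%, 5.56% and 6.06%, so C-poor clusters were lower in replicate 1 only. A single edited read was found in 46.8%, 53.5% and 56.4% of C-poor clusters and in 26.9%, 31.5% and 33.8% of the remaining clusters at like coverage, which is 21.5 ± 1.46 percentage points more. A cluster with more C bases at the same coverage has more covered C bases and needs more edits to exceed the background rate. The directions for edited reads and for single edited reads are thus in part built in. Between clusters with like numbers of covered C bases, the difference in single edited reads turned to -5.95 ± 0.677 percentage points. The difference in edited reads then came to 0.0324, -0.286 and -0.114, with no common sign.

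**Figure D2:**
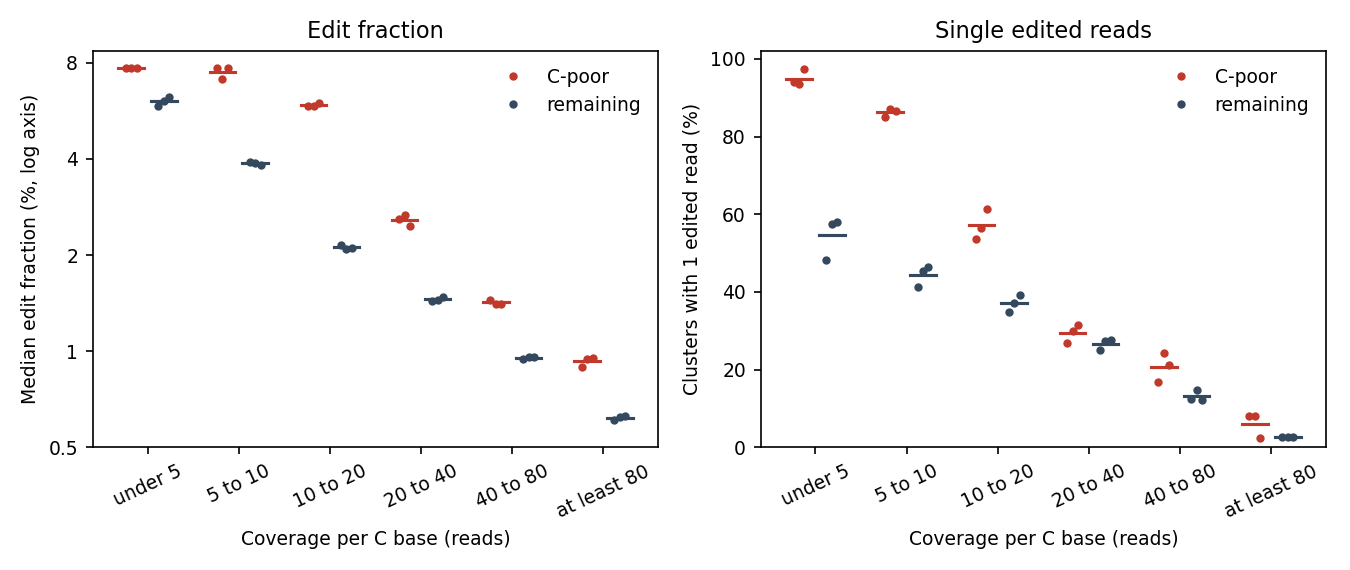
Median edit fraction (left, percent on a log axis) and share of clusters with 1 edited read (right, percent) by coverage per C base in reads, for C-poor and remaining clusters. Points are the 3 replicates and lines their means: the C-poor medians lie above the remaining ones in all 6 classes, and the shares with a single edited read lie far apart under 10 reads (86.3% against 44.3% at 5 to 10) and close together at 20 to 40 (29.5% against 26.6%).

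The number of C bases divided the C-poor clusters further. A single C base was present in 190, 177 and 165 clusters. There, edited bases and edited reads must agree in number unless reads are counted otherwise, and they did in 189, 176 and 165. Their median edit fraction was 8.59% ± 0.437, 84.8% ± 1.46 of them held 1 edited base, and 2.67% ± 0.843 were found in all 3 replicates. Their median coverage was 12.0 ± 1.00 reads, so for most of them the edit fraction is 1 edit over that coverage. Clusters with 3 C bases, the largest class with 650, 725 and 540 members, had a median of 2.92% ± 0.508, and 27.2% ± 3.95 of them held 1 edited base. Clusters with at least 5 C bases (240, 207 and 147) had a median of 3.84% ± 0.410, none with a single edited base, and 22.2% ± 5.29 were found in all 3 replicates. The shares found in all replicates were not matched for edited reads or length. A single edited read was present in 84.7% ± 1.76 of clusters with 1 C base and in 25.1% ± 3.27 of those with at least 5.

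C-poor clusters had the highest median edit fraction of the classes of C content, and the largest step lay between them and the next class. Coverage was not held equal here, with a median of 15.6 ± 2.19 reads per C base in C-poor clusters and 25.6 ± 2.03 in the next class. The median edit fraction was 4.95% ± 0.786 up to 0.10 C bases per base, 2.15% ± 0.166 from 0.10 to 0.15, 1.68% ± 0.101 to 0.20, 1.48% ± 0.0928 to 0.25, 1.37% ± 0.0555 to 0.30 and 1.29% ± 0.0626 above. The share with a single edited base fell more steeply, from 34.0% ± 4.14 to 2.59% ± 0.708 between the first 2 classes. Clusters just inside the limit (above 0.09, 596 ± 98.4 per replicate) and just outside it (up to 0.11, 74.7 ± 20.03) differed in length, with medians of 30 and 75 bases and of 3 and 8 C bases. Their median edit fractions were 2.46% ± 0.396 and 2.76% ± 0.0972, and 9.60% ± 2.09 and 23.6% ± 4.03 of them were found in all 3 replicates. A density just above 0.10 is not possible in 30 bases, where the next step is 4 C bases.

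Few C-poor clusters recurred. Recurrence here means that both other replicates had a cluster of any C content on that strand that shared 1 base or more with it. The C-poor clusters found in all 3 replicates in this sense were 127, 134 and 138, or 6.99%, 7.31% and 9.84%, where over all clusters the shares were 10.6%, 9.86% and 13.1%. At like coverage the remaining clusters reached 10.3%, 9.05% and 11.1%, so the C-poor share was lower by 3.36, 1.75 and 1.28 percentage points (-2.13 ± 1.09 as a difference, exact sign-flip p = 0.25). The gap was widest at 80 or more reads per C base (28.8% against 37.8%), a class with no upper limit. The C-poor mean was also lower at 40 to 80 reads (13.0% against 17.2%), at 10 to 20 and under 5. At 5 to 10 reads (1.42% against 1.41%) and 20 to 40 (9.30% against 9.07%) the means were close. Cluster length was not held equal, with medians of 30 and 45 bases. The direction depended on what was held equal. With classes of edited reads in place of coverage the C-poor share was higher in each replicate, by 1.09, 2.21 and 2.93 percentage points, and with classes of covered C bases by 2.73, 3.37 and 5.39.

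Recurrence followed the number of edited reads closely. Of C-poor clusters with 1 edited read, 2.21% ± 0.487 were found in all 3 replicates, against 2.25% ± 0.572 of the remaining clusters. With 3 edited reads it was 17.0% ± 6.90 against 8.84% ± 3.24, and with 4 to 10 it was 32.9% ± 9.29 against 27.0% ± 5.79. With at least 11 it was 85.9% ± 6.85 against 79.8% ± 3.76, over only 24, 21 and 14 C-poor clusters. Replicate 3, which had the fewest clusters, had the highest C-poor share in each of these 4 classes of edited reads.

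**Figure D3:**
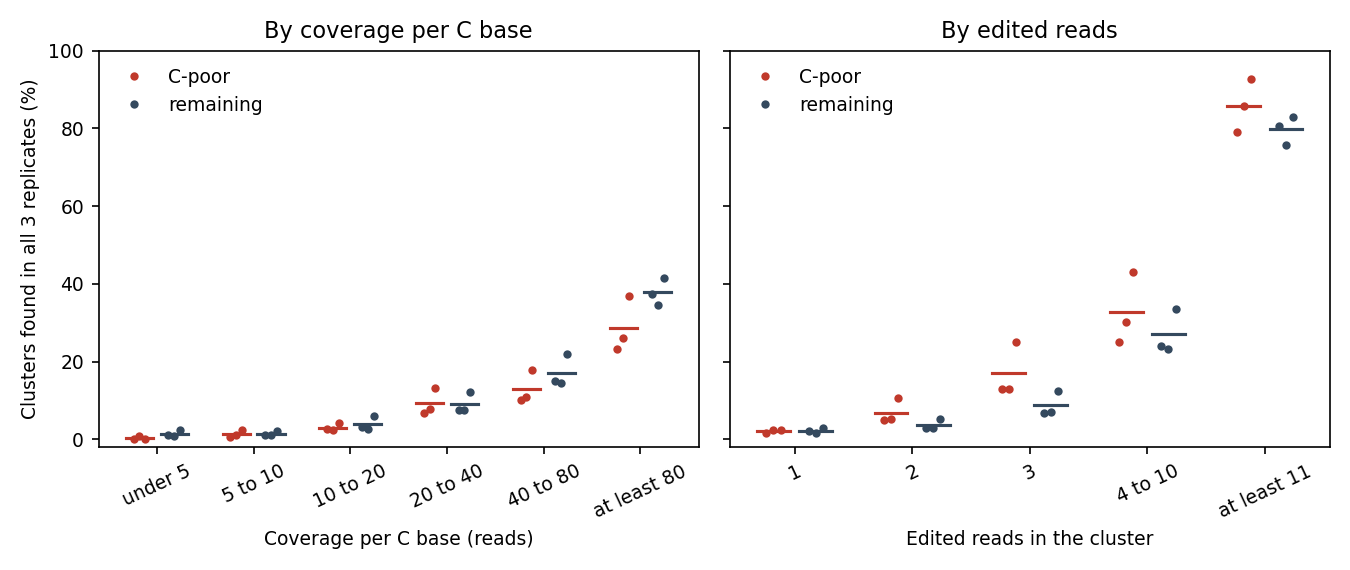
Share of clusters found in all 3 replicates (percent), by coverage per C base in reads (left) and by edited reads in the cluster (right), for C-poor and remaining clusters. Points are replicates and lines their means: at 80 or more reads per C base the C-poor mean was 28.8% against 37.8%, whereas with 3 edited reads it was 17.0% against 8.84%.

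When clusters were joined across replicates, the C-poor clusters made 4639 loci, of which 4274 came from 1 replicate, 320 from 2 and 45 from all 3. These 45 loci differ from the clusters counted above, since a partner may hold more C: only 43, 45 and 43 of the recurrent C-poor clusters had C-poor partners in both other replicates. Exons held 44 of the 45 loci, near the share over all C-poor clusters, of which 2.59% ± 0.432 lay only in introns. The bounds were the same in each replicate for 9 of the 45 loci. The median edit fraction of the 45 loci was 2.16%, from 0.366% to 18.8%, with a median of 4.67 edited reads. Across the 45 loci, the edit fractions of a pair of replicates had Spearman's rho of 0.779, 0.804 and 0.836, as a description over loci that share libraries and coverage. Protein-coding genes alone were named for 35 loci, 3 carried a snoRNA name and 3 a pseudogene name. A second name without a RefSeq match was enough to leave a locus out of the 35. This count is thus not comparable with the 97.1% of C-poor clusters in protein-coding genes. Positions are given on hg19, and which exons are untranslated was not analysed here.

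RPL23, a protein of the large ribosomal subunit that hosts the snoRNA SNORA21, held a locus at chr17:37006609-37006653 with 30, 54 and 42 edited reads. Its edit fraction was 0.391%, 0.348% and 0.359%, the lowest of the 45 loci, at a mean coverage of 3756 reads per C base. SRP9, a subunit of the signal recognition particle that directs nascent proteins to the endoplasmic reticulum, had 31, 28 and 25 edited reads at chr1:225977063-225977227, with 1.37%, 1.25% and 1.39% edited. Both loci were steady across replicates, and their edit fractions did not overlap each other. The mean coverage of SRP9 was 234 reads per C base, so the 2 loci were not at like coverage.

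The pseudogene SRP9P1 had 6, 15 and 13 edited reads at chr10:93566843-93566947, with 0.672%, 0.825% and 0.968% edited. Pseudogenes share much of their parent's sequence, so reads of SRP9 and SRP9P1 may have been exchanged, and the split between them is uncertain. The same holds for the sole intronic locus, at chr5:93018231-93018335 within FAM172A, which also carries the name of the nucleophosmin pseudogene NPM1P27 and had 14, 13 and 10 edited reads.

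TPT1, which encodes the translationally controlled tumour protein and hosts SNORA31, had 26, 16 and 19 edited reads at chr13:45911504-45911593, with 0.480%, 0.352% and 0.583% edited. EIF4A2, an RNA helicase of translation initiation that hosts several snoRNAs, had 24, 16 and 13 at chr3:186507258-186507407. Its edit fraction of 3.00%, 1.94% and 3.30% had the highest mean among loci with a coverage of at least 50 in each replicate, 2.75% against 2.73% in PFN1, a gap far smaller than the spread. All 3 clusters had the same bounds, 150 bases with 14 C bases. NACA, a subunit of the complex that binds nascent chains at the ribosome, had 10 edited reads in each replicate at chr12:57106573-57106602, with 0.423%, 0.438% and 0.387% edited. EIF4A2 lay above TPT1 and NACA in each replicate, whereas TPT1 and NACA overlapped. Coverage was not equal, with means of 107 reads per C base in EIF4A2, 1018 in TPT1 and 1143 in NACA.

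DYNC1H1, the heavy chain of cytoplasmic dynein, had the highest mean edit fraction of the 45 loci, 18.8% ± 3.86. At chr14:102499607-102499636, with the same 30 bases in each replicate, 12 of 73, 23 of 99 and 6 of 36 covered C bases were edited, or 16.4%, 23.2% and 16.7%. Its coverage of 24.3, 33.0 and 12.0 reads per C base was low, but each replicate had at least 6 edited reads. Edited bases and edited reads were equal in number in each replicate, and 41.4%, 60.5% and 35.3% of the reads were edited. Whether the change at this locus depends on the fusion was not tested, as no sample without it was analysed. The locus in APPBP2, next by mean, reached 6.98%, 9.52% and 21.7%, so replicate 3 overlaps the range of DYNC1H1. It rested on only 3, 1 and 2 edited reads, at a coverage of 10.75, 7.0 and 5.75 reads per C base. The value of replicate 3 came from 10 edited bases in 2 reads.

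A single C base per replicate carried the locus in PFN1, the actin-binding protein profilin 1, at chr17:4848978-4849007. It was edited in 11 of 272, 6 of 286 and 5 of 243 reads that covered it, or 4.04%, 2.10% and 2.06%. This was the only locus with 1 C base in each of the 3 replicates. The value of replicate 1 was higher than both others, which were nearly equal.

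MATR3 had 3.04%, 1.42% and 2.71% edited at chr5:138665065-138665244, and the histone gene H2AFZ 1.48%, 0.855% and 0.930% at chr4:100869334-100869423. UQCRB, a subunit of respiratory complex III, had 0.869%, 4.55% and 1.06% at chr8:97243159-97243293, where the value of replicate 2 rested on 483 covered C bases against 2416 and 758. Each position spans the clusters of all replicates, and the replicate values come from stretches that need not be the same. Cluster lengths were 75, 180 and 135 bases in MATR3, 60, 90 and 75 in H2AFZ, and 90, 90 and 60 in UQCRB. HIGD1A, a mitochondrial protein induced by low oxygen, had 2.14%, 2.68% and 2.33% at chr3:42826631-42826690, on 5, 8 and 3 edited reads. PTMA, the chromatin-associated prothymosin alpha, had 0.532%, 0.796% and 0.743% at chr2:232577800-232577859.

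**Figure D4:**
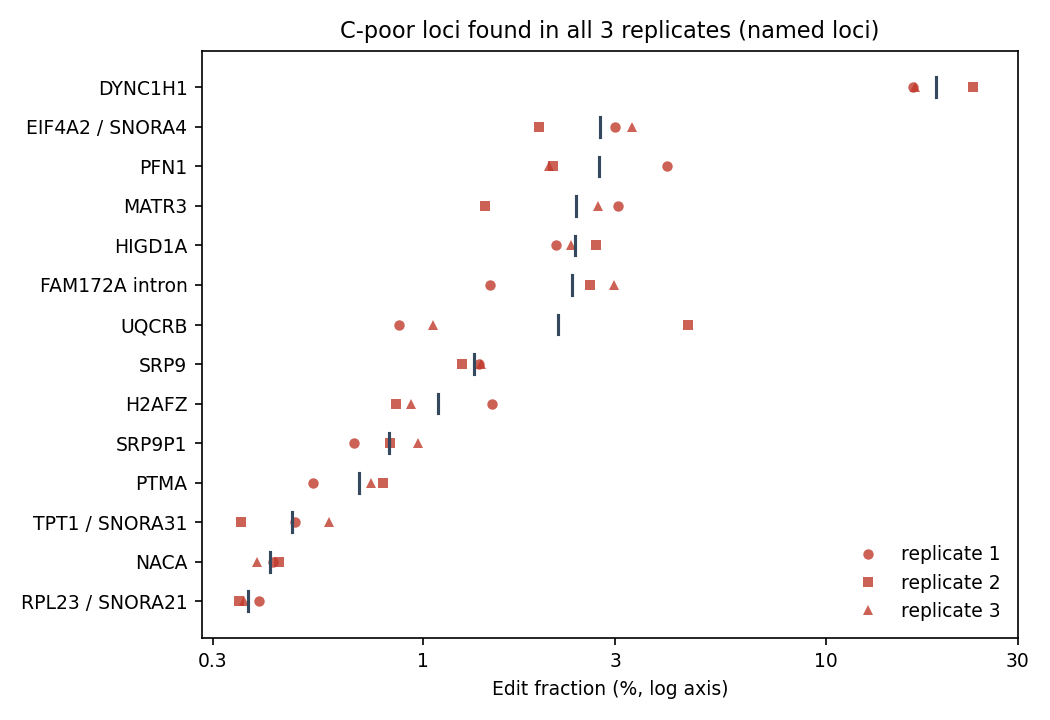
Edit fraction (percent, log axis) in each replicate at the 14 C-poor loci named by edited reads, edit fraction or C density among the 45 found in all 3 replicates, ordered by mean (vertical bars). DYNC1H1 lies between 16.4% and 23.2% in all replicates, and RPL23 with SNORA21 between 0.348% and 0.391%.

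C-poor clusters were spread thinly over genes. They carried the names of 1632, 1717 and 1329 genes, 3451 in all, and 1364, 1455 and 1133 of these had exactly 1. A C-poor cluster was present in all 3 replicates in 232 genes, which is 14.2%, 13.5% and 17.5% of the genes of each replicate. For clusters of any kind the share of genes with a cluster in all 3 replicates was 53.6%, 52.2% and 62.2%. These lists are longer and hold more clusters per gene, so the shares are given side by side only.

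HNRNPH3, an hnRNP that binds G-rich RNA, had 4, 4 and 3 C-poor clusters of 7, 7 and 8 clusters in the gene, between chr10:70096939 and chr10:70101945. It was the only gene with 2 of the 45 loci, with 4, 8 and 4 edited reads at the first and 5, 7 and 3 at the second. BCLAF1, a nuclear protein of transcription and RNA processing, had 3, 4 and 3 C-poor clusters of 8, 10 and 8. RBM39, a splicing factor related to U2AF2, had 6, 1 and 2 of 10, 8 and 6, so its place rests on replicate 1. Of the 10 leading genes, HNRNPH3, BCLAF1, HSPA4, PTP4A1, TPM3 and SCD had at least 2 C-poor clusters in each replicate.

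The other leading genes came from varied pathways. PTP4A1 (a tyrosine phosphatase) had 3, 2 and 4 C-poor clusters of 9, 8 and 10 clusters in the gene. HSPA4 (an HSP70-related chaperone) had 4, 3 and 2 of 8, 8 and 11. TPM3 (a tropomyosin) had 4, 2 and 2 of 9, 4 and 4, and SCD (the stearoyl-CoA desaturase) 4, 2 and 2 of 7, 6 and 4. SKA2, of the kinetochore, had 3, 4 and 1 of 7, 9 and 2. VBP1, a prefoldin subunit, had 3, 1 and 4 of 9, 3 and 6, and GLO1, which detoxifies methylglyoxal, 6, 2 and 0 of 8, 6 and 6. The C-poor clusters of HSPA4, SKA2 and VBP1 included none found in all 3 replicates, while those of PTP4A1 and SCD included 5 each. These are counts over the clusters of all replicates, so a locus seen in several replicates is counted more than once. Over all C-poor clusters, 6.99%, 7.31% and 9.84% were found in all 3 replicates. A gene with few C-poor clusters can thus have none by counting alone.

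By gene list, the C-poor share ran from 0 to above 20%. The lists are patterns of gene names, so members need not share the function that a list is named for. Translation factors, for example, are genes with EIF and EEF names and include EIF2AK1, EIF2AK2 and EEF1E1. Clusters in hnRNP genes were C-poor in 18 of 100, 27 of 85 and 20 of 102 cases, or 18.0%, 31.8% and 19.6%, against 12.7%, 12.1% and 12.3% of all clusters. HSP90 and HSP70 chaperones had 22.5%, 13.9% and 18.6%, on 9, 5 and 8 C-poor clusters, and SR and TRA2 splicing factors 14.5%, 16.7% and 15.6%, on 12, 12 and 10. In these 3 lists each replicate was above the share of all its clusters, and the high value of replicate 2 in hnRNP genes included HNRNPU, with 4 C-poor clusters there and none in replicate 1, and the overlapping HNRNPU-AS1, whose name mostly stands on the same clusters. RBM genes had 24.3%, 11.4% and 17.5%, so the order of hnRNP, HSP90 and HSP70, and RBM genes differed between replicates, with 6 of 17 C-poor clusters of replicate 1 in RBM39.

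Solute carriers lay below the share of all clusters in each replicate, at 9.72%, 10.2% and 10.1%. Ribosomal protein genes of the cytosol had 16.3%, 10.3% and 14.4%, translation factors 17.8%, 14.3% and 10.0%, and noncoding RNAs of the LINC and SNHG names 19.5%, 10.6% and 10.0%, which fell on both sides of the background. So did proteasome subunits (12.4% ± 3.00), DEAD and DEAH box helicases (12.3% ± 3.35), ZNF genes (12.1% ± 2.39), kinesin and centromere genes (11.5% ± 1.73) and ubiquitin genes (10.8% ± 2.91). Mitochondrially encoded genes had none. Lists with few clusters vary by counting alone, and these shares are descriptions without a test.

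**Figure D5:**
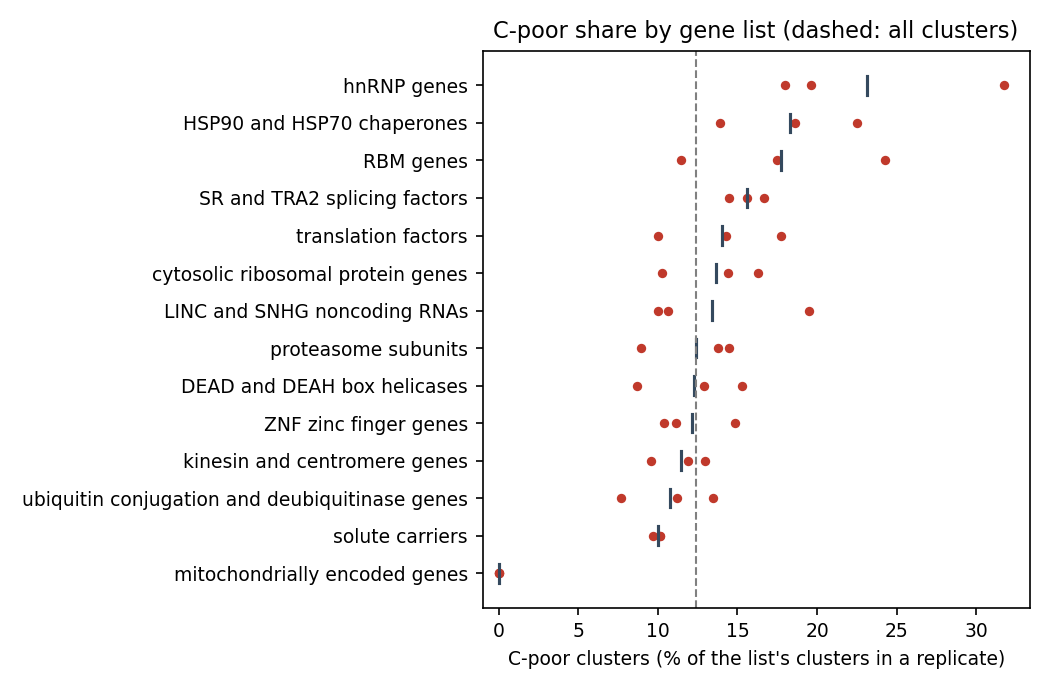
C-poor share of the clusters in 14 gene lists (percent of the list's clusters in a replicate). Points are the 3 replicates, vertical bars their means and the dashed line the mean over all clusters, 12.4%: hnRNP genes have the highest mean (23.1%), which rests on replicate 2, since in replicate 1 they lie below RBM genes, chaperones and the LINC and SNHG RNAs, and mitochondrially encoded genes are at 0.

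RBFOX2 itself, which the fusion also encodes, had 17, 16 and 16 clusters, of which 0, 1 and 1 were C-poor. The C-poor cluster was the same in replicates 2 and 3, an exonic stretch of 30 bases with 2 C bases at chr22:36236240-36236269. It had 19 and 7 edited reads, an edit fraction of 0.651% and 0.527%, and a coverage of 1460 and 664 reads per C base. Reads of the fusion transcript and of the endogenous gene cannot be told apart in this table.

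One cluster stood out by its edited reads. In an intron of LINC00486, a long noncoding RNA, replicate 1 alone had a C-poor cluster at chr2:33091936-33091980 with 677 edited reads but 15 edited bases on 2339 covered C bases. Fewer edited bases than edited reads were given for 3, 2 and 1 C-poor clusters, which cannot occur if both counts were made on the same reads and positions. Without these clusters the mean number of edited reads in C-poor clusters was 2.12, 2.06 and 1.88, in place of 2.50, 2.07 and 1.89. With clusters of this kind left out of the remaining clusters as well, the difference between the groups at like coverage was -1.83 ± 0.292. PARP1, the nuclear sensor of DNA breaks, had the next largest number in a C-poor cluster, 123 edited reads in replicate 2 at chr1:226548888-226548962 with 5.07% edited. ACTB, cytoplasmic beta-actin, had 33 and 36 in replicates 2 and 3, at 1.15% and 1.30%.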

How the data were processed

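RNA of 3 replicates was sequenced with stranded poly(A) or total RNA libraries. Per the labels, the processing notes name STAR and hg19. The authors called C-to-U edits with SAILOR and clusters with FLARE (windows of 30 bases, adjusted p of 0.1, merging distance 15), separately for each replicate. The counts deposited by the authors (C bases, covered and edited C bases, reads and edited reads) are whole numbers without scaling. The deposited edit fraction equalled edited over covered C bases in all clusters (tolerance 1e-07 percentage points). The mean depth deposited by the authors is an unscaled coverage signal, and their deposited score runs from 0 to 1. Clusters held 1637592, 1731304 and 1104249 reads, which is not the depth of the libraries, and intervals cover counting error only. Windows that failed the threshold were not analysed here.

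Tables were computed in Python 3.11.15 (pandas 2.3.3 with NumPy 2.4.6), tests in SciPy 1.17.1 and figures in matplotlib 3.10.9. Values were averaged over coverage classes (limits 5, 10, 20, 40 and 80 reads per C base), weighted by C-poor clusters, within each replicate. The code was tested on simulated data. Start positions were raised by 1. Loci were named by 3 rules: the 10 with the most edited reads, the 5 with the largest edit fraction at a coverage of at least 50, and the 5 lowest in C density with at least 5 edited reads in each replicate. Genes were named by the 10 largest numbers of C-poor clusters, and clusters with extreme values after these were seen. The members, the 15 gene lists and the tests were chosen with earlier results of these data known. Of 9904 gene names, 92.4% matched a RefSeq symbol or synonym (GRCh38.p14).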

Additional observations from a re-analysis of the deposited data

How the results depend on the processing

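Of 46 alternatives that left out no replicate, 16 moved a value by less than 1 SD between replicates, 27 moved it further and 3 reversed its sign. At like coverage, the edit fraction difference was 3.22 percentage points with a limit of 0.08, 1.92 with 0.12, 0.408 in classes of covered C bases, 2.41 in clusters of 45 bases, 2.50 with means, 1.52 with at least 2 edited reads and 1.67 with at least 2 edited bases. The difference in edited reads was -1.70 with 0.08, -0.122 by covered C bases, -1.35 in clusters of 45 bases, -1.05 with medians and -2.75 with at least 2 edited bases. The difference in the share of reads edited was -3.77 percentage points by covered C bases, -0.357 at a score of at least 0.99, -2.10 with means and -0.631 with at least 2 edited bases. The difference in clusters with 1 edited read was 28.6 percentage points with 0.08, 14.3 with 0.12, 2.88 at a score of at least 0.99 and 13.3 in clusters of 45 bases, and it reversed to -5.95 by covered C bases. The recurrence difference was -0.429 percentage points with 0.12, -0.776 in clusters of 45 bases and -3.60 with at least 2 edited reads, and it reversed to 3.83 by covered C bases and 2.08 by edited reads. The cause of these shifts was not tested. The C-poor share was 5.71% with 0.08, 17.5% with 0.12, 8.60% at a score of at least 0.99 and 8.56% among clusters of 45 bases. Leaving out a replicate gave 2.11 to 2.25, -2.21 to -1.89, -1.53 to -1.22, 21.0 to 22.4 and -2.55 to -1.51 for the 5 differences in this order, and 12.2% to 12.5% for the share. The alternatives with at least 2 edited bases, and with at least as many edited bases as edited reads, were chosen after seeing the data. All differences are within a replicate. Depth limits single clusters: with 1 edited read, an edit fraction rests on that read.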
